A study of Mus musculus with 10 samples.

Results

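Embryonic globin genes and the transcription factors of the erythroid program were examined in ESCs, in germ cells derived from them in vitro (iPGCs) and in the somatic cells that arose beside the iPGCs. The 8 genes were *Hba-x*, *Hbb-bh1*, *Hbb-y*, *Hba-a1*, *Klf1*, *Tal1*, *Lmo2* and *Nfe2*. They were taken by symbol from the annotation of the array, which gave 12 probe sets that carry 1 of these symbols and 3 that carry *Hba-a1* together with *Hba-a2*, hence 15 of 45101 probe sets. The genes were chosen by a measured value, namely that the signal of the globins differs between the somatic cells of 2 ESC lines. That difference is therefore given as a description with no test.

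The iPGCs of the Oct4-Gfp line were sorted from embryoid bodies (EBs) as cells positive for the Oct4-gfp reporter and bright for cKit, and those of the V6.5 line as cells positive for SSEA1 and bright for cKit. Somatic cells lacked cKit in either line, together with the reporter in the Oct4-Gfp line and SSEA1 in the V6.5 line, so that cKit-positive cells are not in them. The ESCs were undifferentiated V6.5 cells positive for SSEA1 and cKit, grown on fibroblast feeders, and no Oct4-Gfp ESCs were analysed here. The V6.5 line is a 129xBL6 F1 hybrid and the background of the Oct4-gfp line is given only as mixed, so that line, background and sorting gate cannot be told apart. EBs were hanging drops made without LIF and were taken at day 6, whereas ESCs were at day 0. Each of the 5 populations has 2 arrays (Affymetrix Mouse Genome 430 2.0, after whole transcript amplification), and nothing states that the 2 came from separate cultures, so that p-values measure the spread between these arrays, which may be technical.

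Haemoglobin is a tetramer of alpha-like and beta-like globin chains. In the mouse the first red cells, the primitive erythrocytes of the yolk sac, use the embryonic chains, and the definitive red cells of the fetal liver and bone marrow use the adult chains. The transcription factors GATA1, TAL1 with its partner LMO2, NF-E2 and KLF1 bind promoters and distant enhancers of globin genes in erythroid cells, and TAL1 and LMO2 act earlier as well, in the mesodermal precursors of blood and endothelium.

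The genes lie at 6 places in the mouse genome (GRCm38.p6, RefSeq). The alpha-like genes *Hba-x* (chr11:32276600-32278116) and *Hba-a1* (chr11:32283672-32284486) are neighbours 5555 bases apart, and *Hba-a2* (chr11:32296492-32297310) follows. The beta-like genes *Hbb-bh1* (chr7:103841638-103843162) and *Hbb-y* (chr7:103851754-103853207) are 8591 bases apart. *Klf1* is at chr8:84901982-84905291, *Tal1* at chr4:115056426-115071755, *Lmo2* at chr2:103957903-103981878 and *Nfe2* at chr15:103248212-103258403, and all 8 genes are annotated as protein coding.

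Promoters are shown for 4 genes whose signals were lower by 6.84-fold or more in Oct4-Gfp than in V6.5 somatic cells. For *Hba-a1* these are the signals of the probe sets shared with *Hba-a2*. Each line holds the 150 bases before the annotated start, read 5′ to 3′ on the strand of the gene from RefSeq (GRCm38.p6). Capitals mark matches, on either strand, to a CACCC box (CCNCNCCC, the kind of site KLF1 binds), a GATA motif (TGATAA, also with A as its first or G as its last letter), a CCAAT box (CCAAT) or a TATA box (ATAAAA).
*Hba-x*, chr11:32276450-32276599, plus strand: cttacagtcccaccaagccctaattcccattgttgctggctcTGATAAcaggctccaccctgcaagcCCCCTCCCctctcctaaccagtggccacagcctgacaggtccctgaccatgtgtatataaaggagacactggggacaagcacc
*Hba-a1*, chr11:32283522-32283671, plus strand: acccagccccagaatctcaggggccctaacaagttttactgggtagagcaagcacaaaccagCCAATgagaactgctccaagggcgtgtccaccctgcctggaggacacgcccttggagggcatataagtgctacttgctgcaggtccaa
*Hbb-y*, chr7:103853208-103853357, minus strand: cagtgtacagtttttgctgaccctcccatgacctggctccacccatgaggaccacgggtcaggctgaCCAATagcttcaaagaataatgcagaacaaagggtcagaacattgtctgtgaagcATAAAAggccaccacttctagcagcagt
*Klf1*, chr8:84901832-84901981, plus strand: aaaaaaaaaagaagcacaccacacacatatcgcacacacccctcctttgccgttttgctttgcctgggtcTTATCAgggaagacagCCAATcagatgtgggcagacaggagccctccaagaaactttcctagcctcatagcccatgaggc

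The *Hba-x* stretch held 1 GATA motif, which began 108 bases before the start, and 1 CACCC box by the letters CCNCNCCC (CCCCTCCC) at 83 bases. The *Klf1* stretch held 1 GATA motif at 80 bases and 1 CCAAT box at 64 bases. The *Hbb-y* stretch held a CCAAT box at 83 bases and a TATA box at 28 bases, and that of *Hba-a1* a CCAAT box at 88 bases. An E-box (CANNTG, the kind of site TAL1 binds with its partners) was found in those of *Hba-x* and *Klf1*, and the core NF-E2 motif (TGANTCA) in none of the 4. The stretches before 2 annotated starts of *Tal1* held none of the motifs, and promoters of *Hbb-bh1*, *Lmo2* and *Nfe2* were not used here. Among 32851 promoter stretches of this length, 16% held the GATA motif, 38.1% the CACCC box, 24.5% the CCAAT box, 10.1% the TATA box, 47.7% an E-box and 4.24% the NF-E2 motif. A match is a run of letters and not a measured site, and its absence says only that these letters are not in the stretch. The shorter run CACCC and the run TATAAA were not searched for and are not marked. CACCC stands in each of the 4 stretches shown, and TATAAA in that of *Hba-x*, so a missing mark does not mean that a stretch lacks either. The promoters of *Hba-a1* and *Hba-a2* were identical at 297 of 297 positions once shifted by 3 bases.

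The deposited values are MAS5 signals on a linear scale, brought to a trimmed mean of 500 on every array. Background was the 95th percentile of 44 olfactory receptor probe sets and lay between 12.6 and 25.4. Median signals lay between 53.7 and 91.6, and arrays of the same population correlated at a Pearson r of at least 0.971. Differences are of log2(signal + 14.8), which understates changes of dim probe sets. Folds are ratios of geometric means of the signals, or lower bounds against background ("at least") where every array of the dim group was within it. A probe set was tested where it exceeded the median of its array on at least 2 arrays, which 26368 did, 14 of the 15 described here among them. Signals of different probe sets are not compared with each other, and in these bulk samples fewer cells of a type and less RNA per cell cannot be told apart.

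The embryonic globins were bright in somatic cells of both lines and within background in iPGCs and ESCs, apart from 1 probe set of *Hbb-bh1* (1437810_a_at) that was slightly above it on 5 of those 6 arrays. *Hba-x*, the embryonic alpha-like (zeta) globin, had signals of 3.83 and 11.9 in Oct4-Gfp iPGCs and of 8.87 and 6.08 in V6.5 iPGCs. Its signals were 875 and 502 in Oct4-Gfp somatic cells and 5185 and 3965 in V6.5 somatic cells, and 2.55 and 5.97 in ESCs. All 4 somatic arrays thus lay far above the other 6, and both Oct4-Gfp somatic arrays lay below both V6.5 somatic arrays. The Oct4-Gfp somatic signal of *Hba-x* was 6.84-fold lower than that of V6.5 somatic cells, and yet at least 38.5-fold above Oct4-Gfp iPGCs and at least 43.6-fold above ESCs. In V6.5 somatic cells it was at least 245-fold above V6.5 iPGCs and at least 298-fold above ESCs.

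*Hbb-bh1*, an embryonic beta-like globin of the primitive lineage, was measured by 3 probe sets. The brightest (1437990_x_at) gave 10.1 and 2.18 in Oct4-Gfp iPGCs, 3.03 and 11.2 in iPGCs of V6.5, 2102 and 1687 in Oct4-Gfp somatic cells, 9141 and 8011 in V6.5 somatic cells, and 1.35 and 14.7 in ESCs. On the second (1437810_a_at), Oct4-Gfp somatic cells had 1493 and 1259 and V6.5 somatic cells 8303 and 7238, against 16.5 and 30.8 in ESCs. On the third (1450736_a_at), Oct4-Gfp somatic cells had 1157 and 1078 and V6.5 somatic cells 7176 and 6100, against 2.50 and 2.37 in ESCs. The 3 probe sets gave the same order, with a signal in Oct4-Gfp somatic cells that was 4.55-, 5.65- and 5.92-fold lower than in V6.5 somatic cells. The first array of each somatic pair exceeded the second by no more than 1.25-fold on these probe sets.

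*Hbb-y*, the other embryonic beta-like globin (epsilon y), was also covered by 3 probe sets. The brightest (1436823_x_at) gave 0.352 and 0.626 in Oct4-Gfp iPGCs, 2.18 and 0.213 in iPGCs of V6.5, 515 and 207 in Oct4-Gfp somatic cells, 3809 and 2497 in V6.5 somatic cells, and 4.57 and 0.201 in ESCs. The next (1436717_x_at) gave 540 and 221 in Oct4-Gfp somatic cells and 3738 and 2341 in V6.5 somatic cells, and the third (1450621_a_at) gave 228 and 62.1 against 1428 and 975. The Oct4-Gfp somatic arrays were 9.44-, 8.56- and 9.92-fold lower on the 3 probe sets, and the 2 lines did not overlap on any. The Oct4-Gfp replicates were further apart than those of V6.5, the first being 2.48-fold above the second in Oct4-Gfp and 1.53-fold in V6.5 on the brightest probe set.

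**Figure D1:**
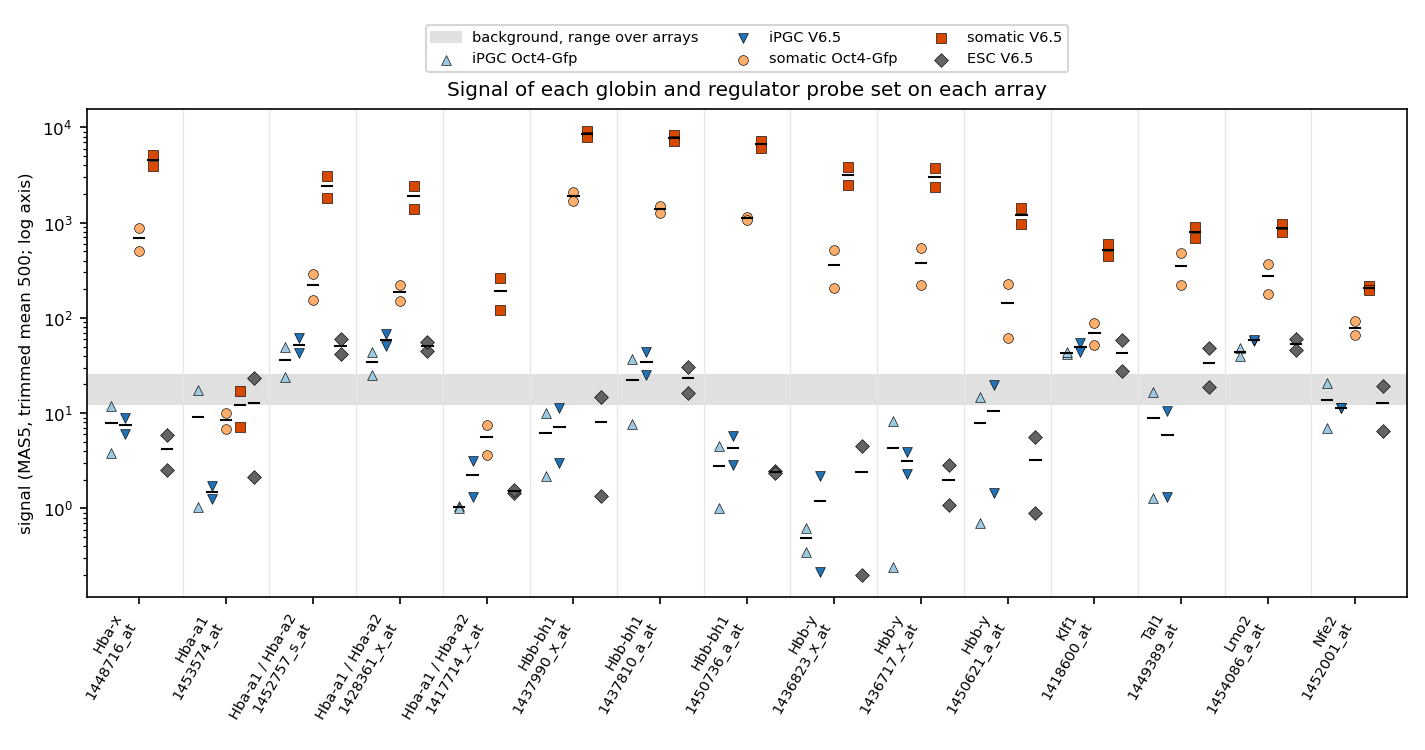
Signal (log axis) of the 15 probe sets on the 10 arrays; points are arrays, short bars are means of 2 arrays, and the grey band is the range of background over arrays. V6.5 somatic cells (squares) lie highest on every probe set but the one of *Hba-a1* alone, and Oct4-Gfp somatic cells (circles) lie between them and the iPGCs and ESCs, except for *Klf1*, where they overlap the ESCs.

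The adult alpha-globin signal followed the embryonic genes, with a lower fold over ESCs. The probe set of *Hba-a1* alone was not above background on both arrays of any population, with 10.1 and 6.88 in Oct4-Gfp somatic cells and 17.2 and 7.09 in V6.5 somatic cells, and it was not tested. Of the 3 probe sets shared by *Hba-a1* and *Hba-a2*, which cannot tell these genes apart, the brightest (1452757_s_at) gave 49.0 and 23.9 in Oct4-Gfp iPGCs, 42.7 and 60.9 in iPGCs of V6.5, 288 and 154 in Oct4-Gfp somatic cells, 3077 and 1824 in V6.5 somatic cells, and 42.2 and 59.4 in ESCs. Oct4-Gfp somatic cells were 11.2-fold below V6.5 somatic cells on it, and 4.22-fold above ESCs. The second (1428361_x_at) was 10.1-fold lower in Oct4-Gfp somatic cells. The third (1417714_x_at) had 7.51 and 3.65 in Oct4-Gfp somatic cells, within background, and 261 and 121 in V6.5 somatic cells, hence at least 7.82-fold lower in Oct4-Gfp. A probe set annotated to *Hba-a2* alone (1427219_at) did not share this pattern, since its signal lay between 3922 and 6945 on all 10 arrays.

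Adult beta-globin probe sets, which carry no symbol of the 8 genes, behaved like the shared alpha-globin ones. The probe set shared by *Hbb-bt*, *Hbb-bs*, *Hbb-b1* and *Hbb-b2* had 304 and 165 in Oct4-Gfp somatic cells and 2047 and 1566 in V6.5 somatic cells, against at most 34 in iPGCs and 26.8 and 26.7 in ESCs. It was 8.0-fold lower in Oct4-Gfp than in V6.5 somatic cells. A probe set of *Hbb-b2* alone had 113 and 64.4 in Oct4-Gfp somatic cells and 585 and 349 in V6.5 somatic cells, which is 5.29-fold lower. *Cygb*, the cytoglobin gene of fibroblast-like cells, had 86.0 and 55.7 in Oct4-Gfp somatic cells and 95.7 and 129 in V6.5 somatic cells, which is 1.60-fold lower.

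Among the regulators, the fold of *Klf1* between the somatic lines was within the range of the globins, and those of *Tal1*, *Lmo2* and *Nfe2* were lower. The genes were chosen on these arrays, so nothing is read from this order. *Klf1*, the Krüppel-like factor that activates globin and other red cell genes, had 41.7 and 43.5 in Oct4-Gfp iPGCs, 54.5 and 44.0 in iPGCs of V6.5, 87.4 and 52.0 in Oct4-Gfp somatic cells, 592 and 441 in V6.5 somatic cells, and 58.6 and 27.8 in ESCs. The Oct4-Gfp somatic arrays were 7.58-fold below the V6.5 somatic arrays. They overlapped the ESCs, with a geometric mean that was 1.67-fold higher, whereas the V6.5 somatic arrays were 12.7-fold above ESCs.

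*Tal1*, a basic helix-loop-helix factor needed for all blood lineages, had 1.29 and 16.6 in Oct4-Gfp iPGCs, 1.31 and 10.6 in iPGCs of V6.5, 481 and 220 in Oct4-Gfp somatic cells, 895 and 687 in V6.5 somatic cells, and 48.6 and 18.9 in ESCs. *Lmo2*, the LIM protein that bridges TAL1 and GATA factors, had 48.0 and 39.9 in Oct4-Gfp iPGCs, 57.8 and 58.3 in iPGCs of V6.5, 369 and 177 in Oct4-Gfp somatic cells, 803 and 959 in V6.5 somatic cells, and 60.3 and 46.2 in ESCs. Both genes were well above the iPGC and ESC arrays in each somatic line. *Tal1* was 2.41-fold and *Lmo2* 3.44-fold lower in Oct4-Gfp than in V6.5 somatic cells, with no overlap between the lines. *Nfe2*, the haematopoietic subunit of NF-E2, had 92.8 and 65.5 in Oct4-Gfp somatic cells and 217 and 197 in V6.5 somatic cells, against 19.4 and 6.46 in ESCs, and at most 20.8 in iPGCs. It was 2.65-fold lower in Oct4-Gfp somatic cells, and no fold is given against ESCs because 1 of their 2 arrays was within background.

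On the log2 scale, the difference of Oct4-Gfp minus V6.5 somatic cells was -3.40, -3.24 and -3.26 for the shared alpha-globin probe sets, -3.18, -3.04 and -3.13 for *Hbb-y*, -2.75 for *Hba-x*, -2.67 for *Klf1* and -2.18, -2.49 and -2.55 for *Hbb-bh1*. It was -1.72 for *Lmo2*, -1.25 for *Nfe2* and -1.23 for *Tal1*. The SD within lines was between 0.13 for *Hbb-bh1* (1450736_a_at) and 0.87 for *Hbb-y* (1450621_a_at). *Hba-x* and *Klf1*, or *Nfe2* and *Tal1*, thus differed from each other by less than their spread. The globins lay apart from *Nfe2* and *Tal1* by more than their spread, *Hbb-bh1* by the least. *Lmo2* and the brightest probe set of *Hbb-bh1* differed by less than the SD of *Lmo2*, 0.52. Of the 14 tested probe sets, 11 were lower by 2 log2 units or more, as were 0.0834% of all tested probe sets, and all 14 had both Oct4-Gfp arrays below both V6.5 arrays, as had 21.5% of all tested probe sets. These genes were selected for this difference, so nothing is read from those counts or from the order of the genes.

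**Figure D2:**
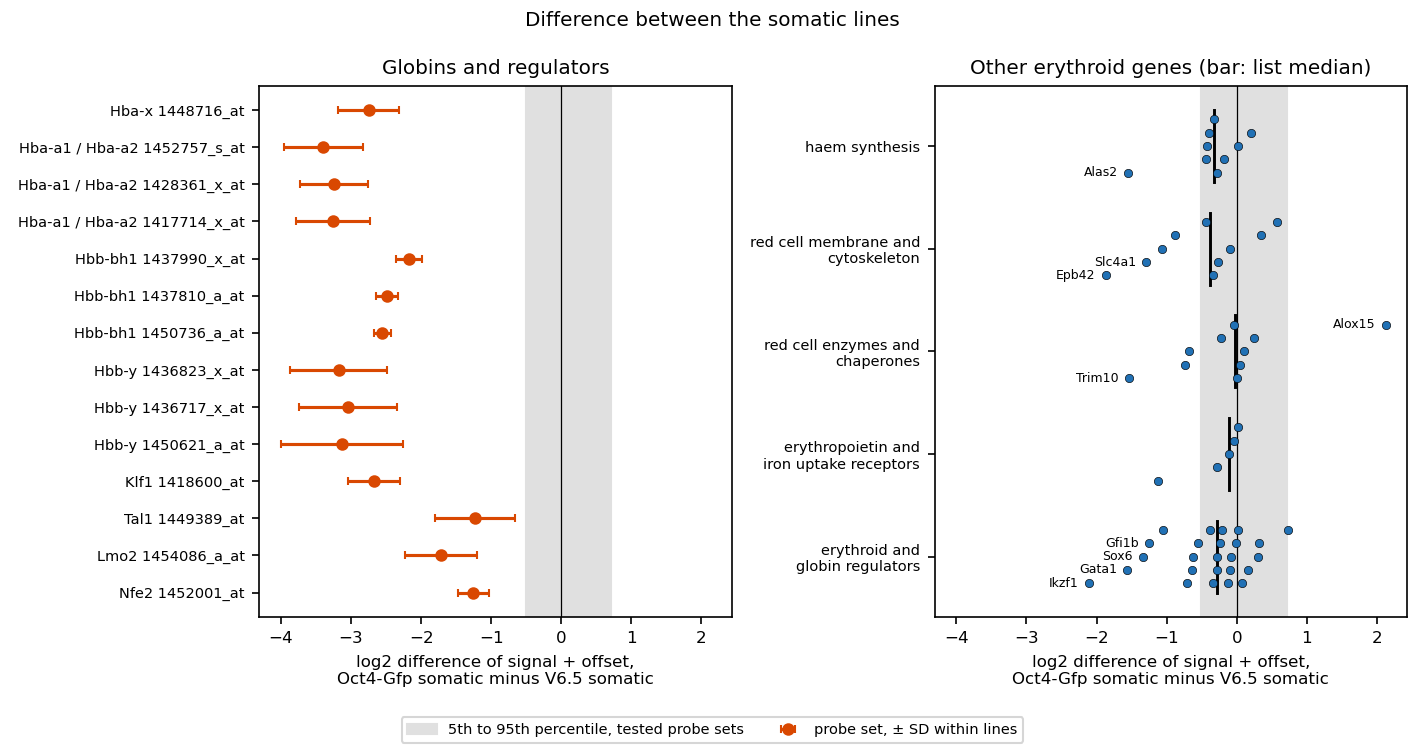
Log2 difference of signal plus the offset, Oct4-Gfp minus V6.5 somatic cells, for the tested globin and regulator probe sets (left, with the SD within lines, n = 2 arrays each) and for other erythroid genes by list (right, bars are list medians). The grey band spans the 5th to the 95th percentile of all tested probe sets, -0.51 to 0.72, and the globins lie between -2.18 and -3.40.

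Ratios within an array do not depend on its scaling. Relative to *Klf1*, the log2 ratio of *Hba-x* was 3.32 and 3.27 on the Oct4-Gfp somatic arrays and 3.13 and 3.17 on the V6.5 somatic arrays, a difference of 0.15. The ratio of *Hbb-y* to *Klf1* was 2.56 and 2.00 in Oct4-Gfp and 2.69 and 2.50 in V6.5, and overlapped between lines. That of *Hbb-bh1* to *Klf1* was higher in Oct4-Gfp, with 4.59 and 5.02 against 3.95 and 4.18. The signals of *Hba-x*, *Hbb-y* and *Klf1* therefore differed by similar folds between the lines. The *Klf1* signals in Oct4-Gfp somatic cells, 87.4 and 52.0, overlapped those of ESCs, 58.6 and 27.8, unlike those of the globins. A change of *Klf1* above that level can thus be larger than its fold, and a stable ratio to *Klf1* is not read as a shared change. The genes were also chosen on these arrays. Relative to *Tal1*, however, the log2 ratio of Oct4-Gfp minus that of V6.5 somatic cells was -1.51 for *Hba-x*, -0.91 for *Hbb-bh1*, -1.97 for *Hbb-y* and -1.65 for *Klf1*, with no overlap. *Nfe2* and *Tal1* kept a similar ratio, which was -2.38 and -1.75 on the Oct4-Gfp arrays and -2.04 and -1.81 on the V6.5 arrays.

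**Figure D3:**
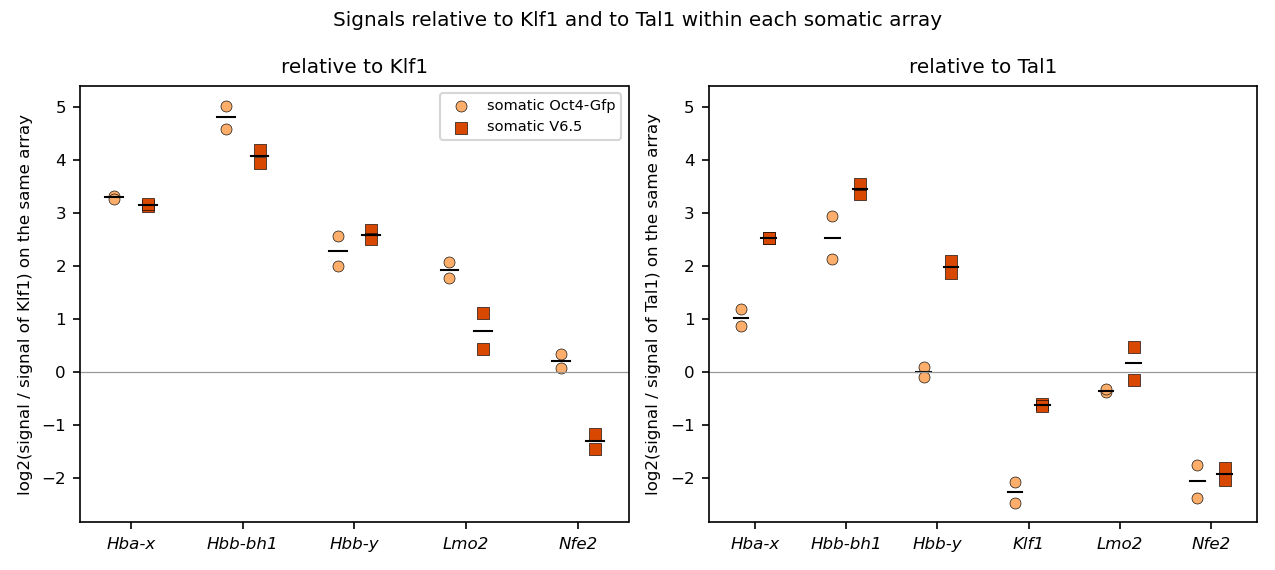
Log2 ratio of the signal of each gene to that of *Klf1* (left) and of *Tal1* (right) on the same somatic array; points are arrays and bars are means of 2 arrays. The ratio of *Hba-x* to *Klf1* lies between 3.13 and 3.32 on all 4 arrays, whereas that to *Tal1* is 0.86 and 1.19 in Oct4-Gfp and 2.53 on both V6.5 arrays.

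The comparison of the 2 cell types did not use the difference between lines, because it takes the mean of both lines. Somatic cells were higher than ESCs for all 7 genes with a tested probe set of their own (limma, 5 populations in 1 model). The log2 difference was 7.53 ± 0.28 (SE) for *Hbb-bh1* (adjusted p = 8.57e-07), 6.53 ± 0.25 for *Hba-x* (adjusted p = 8.96e-07) and 5.92 ± 0.33 for *Hbb-y* (adjusted p = 4.15e-06). For the regulators it was 3.50 ± 0.42 for *Tal1* (adjusted p = 0.000192), 2.86 ± 0.26 for *Lmo2* (adjusted p = 4.33e-05), 2.41 ± 0.26 for *Nfe2* (adjusted p = 0.0001) and 1.90 ± 0.26 for *Klf1* (adjusted p = 0.00039). In this comparison 63.3% of all tested probe sets were called. The 7 genes entered the test only through their somatic signals, so that these p-values and their count do not support anything. For *Klf1* the mean of the lines was carried by V6.5, as the values above show.

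In iPGCs the genes were below somatic cells on the mean of both lines. For *Klf1* this was carried by V6.5, where somatic cells were 10.4-fold above iPGCs, against 1.58-fold in Oct4-Gfp. The log2 difference of iPGCs minus somatic cells was between -7.58 for *Hbb-bh1* and -1.78 for *Klf1*. Adjusted p (limma) was at most 0.000178 for the 7 genes, and 58.4% of all tested probe sets were called. Here too the 7 genes entered the test only through their somatic signals, so that these p-values and their count do not support anything. None of the 7 was called between iPGCs and ESCs, where 41.8% of all tested probe sets were, nor between V6.5 iPGCs and ESCs, where 27.2% were. At an unadjusted p under 0.05, *Tal1* was the 1 gene in each. Its log2 difference of iPGCs minus ESCs was -1.12 (95% interval -2.08 to -0.15, adjusted p = 0.0643), and of V6.5 iPGCs minus ESCs -1.19 (-2.31 to -0.07, adjusted p = 0.103). *Klf1* and *Lmo2*, which were above background on all iPGC and ESC arrays, differed by 0.12 (-0.48 to 0.72) and -0.05 (-0.65 to 0.54) between iPGCs and ESCs. With 2 arrays per population, changes within these intervals are not excluded. The globins were within or near background in both populations.

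Between the iPGC lines no gene was called. Oct4-Gfp iPGCs differed from V6.5 iPGCs by -0.31 (-1.0 to 0.37) for *Lmo2*, -0.15 (-0.85 to 0.54) for *Klf1* and 0.15 (-0.97 to 1.27) for *Tal1* on the log2 scale, with adjusted p of at least 0.568 for the 7 genes and none of them under an unadjusted p of 0.05. limma called 0% of all tested probe sets in this comparison, and 5526 had an unadjusted p under 0.05, while limma-trend called 932, none of them a probe set of the 7 genes. The median over the 7 genes of the contrast of iPGCs minus somatic cells in Oct4-Gfp, less the same contrast in V6.5, was 2.11 log2 units. It shares the somatic arrays on which the genes were chosen and was not tested.

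The rest of the erythroid program was represented by 73 genes of 5 lists, of which 59 had a tested probe set. Somatic cells were higher than ESCs for 28 of them and lower for 14 (33.6% and 29.7% of all tested probe sets), with a median of 0.42 against 0.06 over all tested probe sets. With arrays centred on their medians, 18 genes of the lists were higher and 16 lower, and over all probe sets 6518 were higher and 8969 lower, in place of 8853 and 7844. Between the somatic lines 0 of 59 were called, against 0.0834% of all tested probe sets, and 20 had an unadjusted p under 0.05, as had 3287 of all 26368 tested probe sets. Oct4-Gfp was lower than V6.5 by 1 log2 unit or more for 11 of the 59, as it was for 0.549% of the 12207 genes tested, and higher by that much for 1. Both Oct4-Gfp somatic arrays were below both V6.5 somatic arrays for 30 of the 59, and for 22.4% of genes, and the difference was below 0 for 43, and for 49.6% of genes. Over all tested probe sets, 0.0265% were called higher and 0.0569% lower between the somatic lines. In iPGCs 11 of the 59 genes were higher and 8 lower than in ESCs (21.2% and 20.7% of all tested probe sets), and 18 were higher and 25 lower than in somatic cells (26.9% and 31.4%). In V6.5 iPGCs 10 were higher and 6 lower than in ESCs (15.6% and 11.7%). Without ESC replicate 2 the higher genes were 7 in iPGCs and 4 in V6.5 iPGCs, and without ESC replicate 1 they were 6 in V6.5 iPGCs.

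Of 9 genes of haem synthesis, 5 were higher and 1 was lower in somatic cells than in ESCs (33.6% and 29.7% of all tested probe sets). *Alas2*, the erythroid form of the first enzyme of the pathway, had 235 and 163 in Oct4-Gfp somatic cells and 759 and 477 in V6.5 somatic cells, against 26.7 and 44.2 in ESCs. It rose by 2.87 log2 units in somatic cells over ESCs (adjusted p = 0.000977). Without its somatic signals *Alas2* would not have entered this test, so that the p-value does not support anything. *Alas2* was 3.07-fold lower in Oct4-Gfp than in V6.5 somatic cells (log2 difference -1.55, adjusted p = 0.32). The mitochondrial iron importer *Slc25a37* had 528 and 537 in Oct4-Gfp and 825 and 639 in V6.5 somatic cells, *Uros* 297 and 384 against 542 and 388, and *Cpox* 757 and 619 against 1010 and 817. The signals of these 3 enzymes and carriers were at most 1.36-fold lower in Oct4-Gfp and were above background in every population.

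Among 10 tested genes of the red cell membrane, 4 were higher and 4 lower in somatic cells than in ESCs (33.6% and 29.7% of all tested probe sets). *Epb42*, a protein of the membrane skeleton, had 35.9 and 9.11 in Oct4-Gfp somatic cells and 137 and 90.8 in V6.5 somatic cells, and *Gypc*, glycophorin C, had 119 and 102 against 277 and 221. *Kel*, the Kell blood group protein, was within background in Oct4-Gfp somatic cells, with 11.9 and 5.19, and had 37.9 and 26.2 in V6.5. *Slc4a1*, the anion exchanger band 3, had 23.3 and 38.7 in Oct4-Gfp and 144 and 61.8 in V6.5 somatic cells, but it was below ESCs in somatic cells (log2 difference -0.73, adjusted p = 0.0461) and was brightest in iPGCs, with 159 and 164 in Oct4-Gfp and 225 and 233 in V6.5. *Gypc* had 17.1 and 25.2 in Oct4-Gfp iPGCs and 18.3 and 3.64 in V6.5 iPGCs. *Epb42* had 7.69 and 14.8 in Oct4-Gfp iPGCs and 17.2 and 26.8 in V6.5 iPGCs. *Gypc* thus followed the globins and *Slc4a1* did not. *Epb42* was highest in V6.5 somatic cells, but its Oct4-Gfp somatic signals overlapped those of iPGCs, unlike the embryonic globins.

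Among red cell enzymes and chaperones, *Trim10* had 29.7 and 19.8 in Oct4-Gfp somatic cells and 103 and 95.3 in V6.5 somatic cells, and *Hemgn*, hemogen, had 23.5 and 22.8 against 143 and 59.8. *Blvrb*, biliverdin reductase B, had 375 and 367 against 703 and 564, but was brightest in ESCs, with 1107 and 1144. *Alox15*, a lipoxygenase of reticulocytes and other cells, went the other way, with 57.8 and 354.0 in Oct4-Gfp and 23.3 and 22.2 in V6.5 somatic cells. Of 10 tested genes of this list 5 were higher and 2 lower in somatic cells than in ESCs (33.6% and 29.7% of all tested probe sets). Of the receptors, *Epor*, the erythropoietin receptor, had 182 and 206 in Oct4-Gfp somatic cells and 462 and 415 in V6.5 somatic cells, against 194 and 143 in ESCs, and fell to 19.4 and 30.3 in Oct4-Gfp iPGCs and 42.5 and 60.7 in V6.5 iPGCs (iPGCs minus ESCs -1.84 log2 units, adjusted p = 0.000452). *Tfrc*, *Slc11a2* and *Steap3*, which serve iron uptake in many cells, differed by at most 0.28 log2 units between the somatic lines.

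Of 25 other erythroid and globin regulators, 12 were higher and 5 lower in somatic cells than in ESCs (33.6% and 29.7% of all tested probe sets). *Gata1*, the central activator of the erythroid program, had 28.8 and 26.9 in Oct4-Gfp iPGCs, 24.5 and 46.0 in iPGCs of V6.5, 143 and 66.5 in Oct4-Gfp somatic cells, 320 and 318 in V6.5 somatic cells, and 41.1 and 36.2 in ESCs. It rose by 1.86 log2 units in somatic cells over ESCs (adjusted p = 0.000528). *Gata1* entered this test only through its somatic signals, so that the p-value does not support anything. Its Oct4-Gfp somatic signal was 3.27-fold below that of V6.5 (log2 difference -1.56, adjusted p = 0.173). *Ikzf1*, encoding the lymphoid and erythroid factor Ikaros, had 59.5 and 43.3 in Oct4-Gfp somatic cells and 300 and 239 in V6.5 somatic cells, against 76.4 and 72.5 in ESCs, so that only the V6.5 somatic arrays were above ESCs. *Sox6*, a repressor of embryonic beta-like globin in definitive cells, had 132 and 103 against 303 and 330. *Gfi1b*, a transcriptional repressor that acts within the erythroid and megakaryocyte lineages, had 97.5 and 54.7 against 213 and 179. These 4 genes did not pass the test between the somatic lines (adjusted p of at least 0.162).

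*Runx1* and *Lyl1* overlapped between the somatic lines. *Runx1*, which is needed for the first definitive blood cells, had 921 and 350 in Oct4-Gfp somatic cells and 560 and 814 in V6.5 somatic cells. It rose by 4.40 log2 units in somatic cells over ESCs (adjusted p = 1.81e-05). *Runx1* entered this test only through its somatic signals, so that the p-value does not support anything. *Lyl1*, a relative of *Tal1*, had 130 and 62.5 against 113 and 135. The adjusted p between the lines was 0.833 for *Runx1* and 0.622 for *Lyl1*. *Runx1* and *Lyl1*, which the rule for naming list genes did not pick, are given here after their values were seen.

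Genes whose profile over the 10 arrays was most like that of the embryonic globins were sought among 12200 genes by Pearson r with the mean log2 profile of *Hba-x*, *Hbb-bh1* and *Hbb-y*. The 10 highest were *Postn*, *Itm2a*, *Col3a1*, *Sema3f*, *Col5a1*, *Itga4*, *Tigd5*, *Plat*, *Popdc2* and *Tnik*, with r between 0.996 and 0.986. None is in the erythroid lists, and *Postn*, *Col3a1* and *Col5a1* encode periostin and fibrillar collagens of connective tissue. *Postn* had 367 and 234 in Oct4-Gfp somatic cells and 1189 and 1132 in V6.5 somatic cells, which is 3.96-fold lower. Among the members, r with this profile was 0.983 for *Lmo2*, 0.980 for *Nfe2*, 0.964 for *Tal1* and 0.862 for *Klf1*. The 5 genes most like *Klf1* were *Art4* (r = 0.976), *Trim10* (0.962), *Gfi1b* (0.946), *Epb42* (0.943) and *Ube2l6* (0.937). *Art4*, which carries the Dombrock blood group, had 16.7 and 11.8 in Oct4-Gfp somatic cells and 96.7 and 79.8 in V6.5 somatic cells. These correlations describe arrays that share 2 levels, somatic and other, and the genes ranked share the same arrays.

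The erythroid label was set against marker genes fixed for each cell type. Of the defining erythroid markers, *Alas2*, *Epor* and *Gata1* were above background on all 4 somatic arrays and *Slc4a1* on 3. Of the defining leukocyte markers, *Ptprc* (CD45), which marks most white cells, had 3.11 and 21.5 in Oct4-Gfp and 3.41 and 16.3 in V6.5 somatic cells. *Csf1r* had 30.9 and 26.3 against 33.5 and 37.6, *Spi1* 32.3 and 16.9 against 21.4 and 30.6, and *Tyrobp* 19.2 and 31.2 against 21.4 and 24.9, all close to background. *Fcer1g* had 28.5 and 49.7 against 56.8 and 53.7, and *Lyz2* 44.8 and 21.1 against 41.9 and 38.6. The summed signal of 12 leukocyte markers was 567 and 465 in Oct4-Gfp and 710 and 682 in V6.5 somatic cells, and it was far higher in ESCs, at 7862 and 8628, where *Laptm5* alone had 7216 and 7946. *Laptm5* had 284 and 206 in Oct4-Gfp and 411 and 348 in V6.5 somatic cells. Of the megakaryocyte markers, *Itga2b* had 47.1 and 47.7 against 30.9 and 40.9, *Gp1bb* 72.8 and 58.8 against 37.8 and 27.1, and *Pf4* 10.7 and 11.9 against 110 and 17.5. *Gp9*, with 15.3 and 22.1 against 26.9 and 9.53, overlapped between the lines. *Itgb3* had 223 and 142 against 421 and 249.1, and the sum of 9 markers of the list was 406 and 331 in Oct4-Gfp and 652 and 410 in V6.5 somatic cells. The leukocyte and megakaryocyte sums were lower in Oct4-Gfp, but without *Itgb3* the megakaryocyte sum was 183 and 189 in Oct4-Gfp and 231 and 161 in V6.5 somatic cells and overlapped, and *Itga2b* and *Gp1bb* were higher in Oct4-Gfp. These sums without 1 gene were added after the data were seen.

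Markers of other mesodermal cells were present in both somatic lines. The endothelial receptor *Tek* had 314 and 515 in Oct4-Gfp and 930 and 423 in V6.5 somatic cells, *Cdh5* 70.4 and 43.5 against 55.5 and 94.1, *Pecam1* 267 and 226 against 321 and 172, and *Tie1* was within background on 3 of the 4 arrays. *Flt1* had 316 and 274 against 374 and 408, *Plvap* 53.7 and 49.7 against 83.5 and 72.7, and *Cldn5*, in the other direction, 41.0 and 24.7 against 6.85 and 8.39. The sum of 16 endothelial markers was 4779 and 4876 in Oct4-Gfp and 6207 and 5006 in V6.5. Of the cardiomyocyte markers, *Tnnt2* had 2000 and 2263 against 2134 and 925, *Actc1* 397 and 302 against 393 and 410, *Myl7* 33.6 and 228 against 85.9 and 6.97, and *Myh6* 3.75 and 36.3 against 8.46 and 13.5. The sum of 11 cardiomyocyte markers overlapped, with 3553 and 4275 in Oct4-Gfp and 4661 and 2613 in V6.5. The visceral endoderm markers overlapped as well, with sums of 1791 and 1147 in Oct4-Gfp and 1227 and 1971 in V6.5, and *Afp* was within background on 3 of the 4 arrays. *Hnf4a*, with 73.0 and 63.9 against 10.8 and 34.3, and *Cubn*, with 71.1 and 57.3 against 31.4 and 6.55, were higher in Oct4-Gfp. *Ttr*, with 529 and 192 against 267 and 721, and *Apoa1*, with 287 and 116 against 136 and 259, overlapped. *Apob*, with 149 and 66.0 against 46.1 and 92.2, overlapped too, and *Amn*, with 11.3 and 21.7 against 28.2 and 26.3, was lower in Oct4-Gfp. The part of these cell types in the globin difference was not tested.

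Some fibroblast markers were lower in Oct4-Gfp somatic cells, as the globins were. Of the fibroblast markers, *Col3a1*, a fibrillar collagen, had 523 and 341 in Oct4-Gfp and 1868 and 1705 in V6.5 somatic cells (log2 difference -2.04, adjusted p = 0.036), and *Postn* fell by 1.93 log2 units (adjusted p = 0.036). These 2 of 7 tested genes of the list were called lower, in a comparison whose 22 calls over all probe sets became 0 to 16 with 1 array left out. *Col1a2* had 839 and 739 against 2010 and 2543, while *Col1a1* had 6859 and 5804 against 6508 and 6541, and *Pdgfrb* 2691 and 2037 against 2646 and 2133. *Thy1* was higher in Oct4-Gfp, with 289 and 299 against 173 and 107, and *Lox* was within background in both. The list summed to 11606 and 9489 in Oct4-Gfp and to 14517 and 14270 in V6.5 somatic cells. In the other direction, the sum of 10 germ cell and pluripotency markers was 2704 and 2982 in Oct4-Gfp and 1809 and 1986 in V6.5 somatic cells, against 22708 and 24310 in ESCs. *Tfap2c* had 1931 and 1771 in Oct4-Gfp and 1246 and 1038 in V6.5 somatic cells, and without it the sum was 773 and 1211 against 563 and 948 and overlapped. *Pou5f1* had 63.9 and 107 in Oct4-Gfp and 9.19 and 70.7 in V6.5 somatic cells, *Nanog* 226 and 389 against 100.5 and 188, *Dppa3* 62.3 and 94.6 against 52.3 and 121, and *Kit*, the product of which the gate excluded, 193 and 240 against 134 and 261. The part of either list in the globin difference was not tested.

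**Figure D4:**
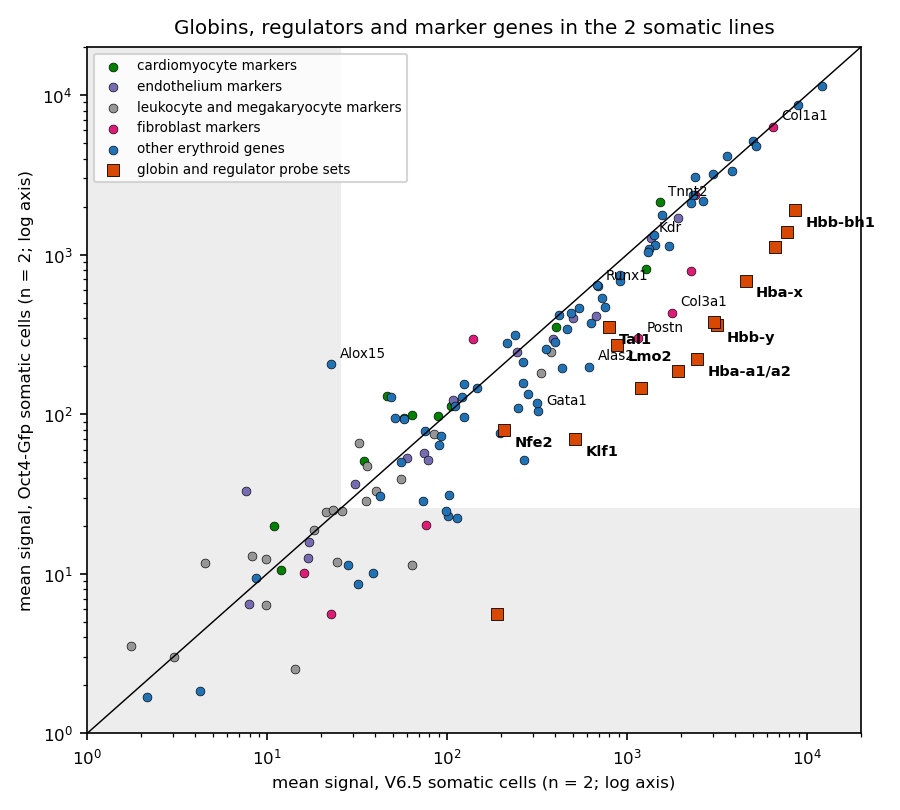
Mean signal (n = 2 arrays, both axes logarithmic) in Oct4-Gfp against V6.5 somatic cells for the tested globin and regulator probe sets (squares), other erythroid genes and markers of other cell types (circles); the diagonal marks equal signals and grey marks the highest background of any array. The globins and *Klf1* lie well below the diagonal, and *Runx1*, *Kdr* and *Col1a1* lie close to it.

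One measure of RNA quality overlapped between the somatic lines. The ratio of the 3′ to the 5′ control probe sets of *Gapdh* was 1.65 and 2.05 in Oct4-Gfp somatic cells and 1.74 and 1.73 in V6.5 somatic cells, and it was 2.02 and 2.37 in Oct4-Gfp iPGCs, 1.51 and 1.63 in V6.5 iPGCs and 1.30 and 1.28 in ESCs. Replicate 1 was above replicate 2 in both somatic lines for each probe set of *Hba-x*, *Hbb-bh1* and *Hbb-y* and each shared by *Hba-a1* and *Hba-a2*, by 1.07- to 3.67-fold in Oct4-Gfp and by 1.14- to 2.16-fold in V6.5. Each of these steps was smaller than the distance between the lines on the same probe set.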

How the data were processed

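RNA from 10 arrays was analysed, 2 for each of 5 sorted populations. The deposited values are intensity signals, not on a log scale, which the authors made with MAS5 (named in the submitters' notes, with no version), while the methods of the study name D-Chip, whose values were not used here. Every array has a trimmed mean of 500. Symbols came from the platform annotation, and a gene was represented by its brightest tested probe set. After 64 controls were left out, 14.8 (the 25th percentile) was added before log2, and 26368 probe sets above the array median on at least 2 arrays were tested.

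limma 3.58.1 (R 4.3.3) fitted all populations together, with 5 residual and 2.92 prior degrees of freedom, Benjamini-Hochberg adjustment over every tested probe set and a threshold of 0.05. The fit was tested on simulated data. The members, the gene lists and the tests were chosen with earlier results of these data known. Named are all probe sets of the 8 genes, up to 4 genes of a list by size of the difference between somatic lines, the defining markers, and the 10 and 5 genes closest in profile. Alternatives changed the floor or offset, the filter, the normalization (quantile or median centring), the fit (limma-trend, a replicate block, only the groups compared) and the probe set, or left out 1 array. The number of arrays limits the precision.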

Additional observations from a re-analysis of the deposited data

How the results depend on the processing

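Over 20 alternatives, the 7 genes stayed called in somatic cells against ESCs and in iPGCs against somatic cells, except that *Klf1* and *Nfe2* were not tested under the stricter filter, which left 5 of 5. Between iPGCs and ESCs, where 0 were called, 1 gene, *Tal1*, was called with median centring and with limma-trend, and the range with 1 array left out was 0 to 1, the call coming without Oct4-Gfp iPGC replicate 2. Between V6.5 iPGCs and ESCs, 1 was called with median centring. The median contrast between lines was 2.58 with median centring. The cause was not tested.

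Small differences between populations near background changed sign. For iPGCs minus ESCs, leaving out 1 array gave -0.28 to 0.51 for *Klf1* and -0.20 to 0.10 for *Lmo2*. For V6.5 iPGCs minus ESCs it gave -0.20 to 0.58 for *Klf1* and -0.0447 to 0.25 for *Lmo2*, and *Lmo2* was -0.0555 with quantile normalization and -0.0529 with median centring. Between the iPGC lines, *Klf1* was 0.16 under both, and *Lmo2* was 0.0117 with quantile normalization and 0.0013 with median centring.

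Without ESC replicate 1 and without ESC replicate 2, the calls over all probe sets were 7041 and 5521 for iPGCs against ESCs, in place of 11032, and 3625 and 2938 for V6.5 iPGCs against ESCs, in place of 7180. The other erythroid genes higher in V6.5 iPGCs than in ESCs were 10, and 4 to 11 over the alternatives. limma-trend called 932 probe sets between the iPGC lines, in place of 0. The median difference of the 7 genes between somatic lines lay between -2.33 and -2.02. Of other erythroid genes, 0 were called lower between the somatic lines, 1 with a floor, a doubled offset or quantile normalization, and 4 with median centring. Over all probe sets that comparison gave 22 calls, 5 with a replicate block, 64 with limma-trend, 63 with median centring, 35 with a doubled offset, 2 with no filter, 0 with only the groups compared, and 0 to 16 with 1 array left out. Median centring also gave 8823 higher and 5950 lower in iPGCs than in somatic cells, in place of 7095 and 8291, and 2023 and 3171 in V6.5 iPGCs against ESCs, in place of 4101 and 3079. Same-numbered arrays deviated together by r of -0.29 to 0.26, above 0.1 in 2 of 10 pairs of groups, so the numbers do not pair the arrays, and the replicate block changed no call of the 7 genes.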
